A study of Xenopus laevis with 12 samples.

Results

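The transcripts described here are wnt11b.L, vegt.S, bicc1.L and bicc1.S, 4 of the 51061 genes in the count files, taken by name from the authors' deposited tables and followed by gene identifier into the counts of 12 libraries. All 4 have at least 959 counts in every library and are among the 20803 genes tested. Their names were available only because the authors' deposited Staufen table lists them as enriched, so none was chosen blind to enrichment. The suffixes .L and .S mark the 2 copies of a gene (homeologs) that remain from the genome duplication of Xenopus laevis. Of vegt and wnt11b, a single copy of each has a name in the deposited tables.

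In the Xenopus oocyte, a set of maternal mRNAs is carried to the vegetal cortex during oogenesis, and cells that later inherit the vegetal cytoplasm receive them. The transport particles contain RNA-binding proteins, among them Staufen and hnRNPab, and form large condensates called L-bodies. The ligand Wnt11b acts in maternal Wnt signalling that sets up the dorsal axis, VegT is a T-box transcription factor that starts endoderm formation and the nodal signals that induce mesoderm, and Bicc1 (Bicaudal-C) is a KH-domain protein that represses translation of bound mRNAs. These roles and the vegetal position of the mRNAs are background. The libraries hold no separate animal and vegetal samples, so localization itself was not measured.

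The libraries hold RNA recovered in 3 immunoprecipitations, 4 libraries each, labelled IgG (by that name the control antibody), Staufen and hnRNPab. All 12 start from lysate of oocytes pooled over stages II to III, run on a size exclusion column, with the fractions rich in L-bodies pooled before the antibody was added. Library totals over genes ran from 14147584 to 22103431 counts. No genotype, treatment or strain is given. Nothing says that replicates came from separate frogs, and the spread behind each p-value may therefore be technical. No input library was analysed here, so a transcript that is more abundant in the pooled fractions and one that is better recovered by an antibody cannot be told apart. Likewise, in bulk RNA fewer cells of a type and less RNA per cell cannot be told apart.

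The group labels did not match the deposited tables, and groups are therefore called by their labels throughout. For the 448 tested genes in both tables, the authors' deposited Staufen fold change minus the hnRNPab fold change followed the hnRNPab-labelled libraries minus those labelled IgG (r = 0.999998 across genes, which are not independent replicates). Against the Staufen-labelled libraries minus those labelled hnRNPab, r was -0.719. In this match the Staufen side of the tables lines up with the hnRNPab-labelled libraries, and their hnRNPab side with the IgG-labelled ones. A difference from the IgG-labelled libraries can therefore not be read as enrichment over a control. Whether labels or tables were exchanged was not tested. The antibody target with a name, stau1.S, lay between 23.5 and 35 CPM in the IgG-labelled libraries, between 47.2 and 67.3 in the Staufen ones and between 44.4 and 60.4 in the hnRNPab ones. An antibody selects bound RNA, so the mRNA of its target does not check a label.

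The ligand transcript wnt11b.L (gene7098) is described first, in CPM, the count scaled to library size, after TMM scaling, a correction for differences in library composition. Its level was 87.1, 65.9, 55.8 and 56.4 CPM in the IgG-labelled libraries, in the order of replicates 1 to 4. In those labelled Staufen it was 113, 90.8, 76.5 and 79.2 CPM. In those labelled hnRNPab it was 235, 174, 166 and 186 CPM. The libraries labelled hnRNPab were all above the other 8, while the IgG and Staufen ranges overlapped, with IgG 1 above Staufen 3 and Staufen 4. Group means were 66.3 ± 14.6 CPM (SD, n = 4) for IgG, 89.96 ± 16.8 for Staufen and 190 ± 30.7 for hnRNPab.

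The transcription factor transcript vegt.S (gene2660) stood at 131, 105, 101 and 89.7 CPM in the IgG-labelled libraries. It was at 187, 143, 141 and 135 CPM in those labelled Staufen. It reached 255, 215, 246 and 256 CPM in those labelled hnRNPab. The 3 ranges did not overlap, and replicate 1 was the highest of both the IgG and the Staufen libraries. Group means were 107 ± 17.7, 151 ± 23.7 and 243 ± 19.4 CPM (SD, n = 4) for IgG, Staufen and hnRNPab.

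The copies of the RNA-binding protein gene differed in the order of the groups. For bicc1.S (gene3384) the IgG-labelled libraries held 78.5, 83.5, 79.2 and 71.5 CPM, those labelled Staufen 95.7, 106, 98.2 and 92.9 CPM, and those labelled hnRNPab 177, 199, 185 and 200 CPM. No ranges overlapped, and the SD was 5.72% to 6.36% of the mean in each group, against 8.01% to 22.1% for the other 3 transcripts. For bicc1.L (gene2612) the IgG-labelled libraries held 185, 214, 130 and 175 CPM, those labelled Staufen 295, 375, 226 and 283 CPM, and those labelled hnRNPab 263, 311, 218 and 271 CPM. Here the Staufen and hnRNPab ranges overlapped, the lowest hnRNPab library (218) lay just above the highest IgG library (214), and replicate 2 was the highest and replicate 3 the lowest in every group.

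**Figure D1:**
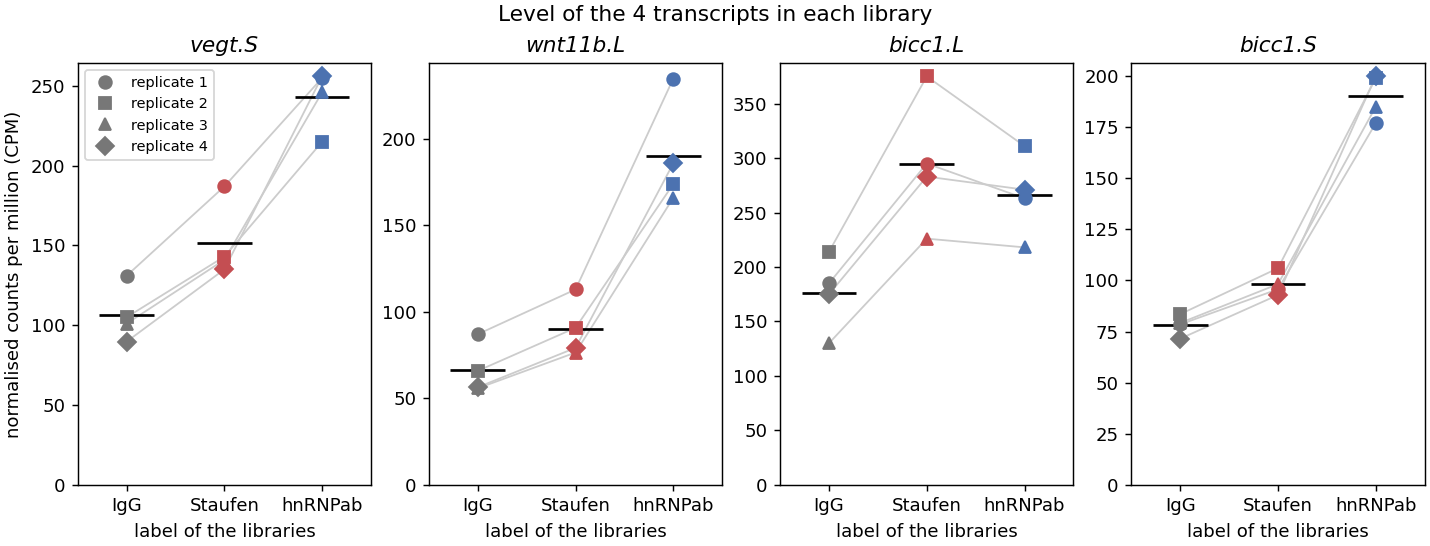
Level of each transcript in CPM (vertical axis, from 0) in the libraries of the IgG, Staufen and hnRNPab groups; each point is 1 library, marker shapes and grey lines join libraries with the same replicate number, and black bars are group means. Levels of vegt.S, wnt11b.L and bicc1.S are highest in hnRNPab, whereas all 4 lines of bicc1.L peak in Staufen.

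Within replicate numbers the order of the groups was the same in 4 of 4 numbers for every transcript. For vegt.S, wnt11b.L and bicc1.S it was hnRNPab above Staufen above IgG. For bicc1.L it was Staufen above hnRNPab above IgG. Libraries with the same number deviated together over all tested genes, so a fit with the replicate number as a block is given wherever it changes a call of these 4 transcripts, and beside the counts of the gene lists.

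The Staufen and IgG libraries were compared as labelled. In those labelled Staufen, bicc1.L was 1.67-fold higher (log2 0.74, SE 0.177, edgeR quasi-likelihood adjusted p = 0.0231), vegt.S 1.42-fold (log2 0.51, SE 0.133, adjusted p = 0.0378) and bicc1.S 1.26-fold (log2 0.33, SE 0.078, adjusted p = 0.0224). The Wnt ligand transcript wnt11b.L was 1.36-fold higher (log2 0.44, SE 0.173) and did not pass (edgeR adjusted p = 0.172), but passed with the replicate block (adjusted p = 8.49e-08). Thus 3 of 4 were called higher, against 4.45% of all tested genes and 8.14% of those in the Staufen table alone. CPM ranges separated, with Staufen higher, for 3 of 4, against 6.67% of all tested genes. With the block 4 of 4 were called higher, against 19% of all tested genes and 31.3% of those in the Staufen table alone. Within replicate numbers the log2 difference ran from 0.67 to 0.81 for bicc1.L, 0.45 to 0.59 for vegt.S, 0.38 to 0.49 for wnt11b.L and 0.29 to 0.38 for bicc1.S, always positive. These transcripts were set at percentiles 87.4 to 97.8 of all tested genes by log2 fold change. Without the block the calls depended on single libraries: vegt.S no longer passed in 10 of 12 fits that each omit 1 library (all except those omitting IgG 1 or hnRNPab 2), bicc1.L in those omitting IgG 3, IgG 4 or Staufen 2, and bicc1.S in the same fits and in that omitting Staufen 3. Over these fits the adjusted p reached 0.139 for vegt.S, 0.0724 for bicc1.L and 0.074 for bicc1.S, while wnt11b.L passed without IgG 1 (adjusted p = 0.0421). None of the 3 passed when the hnRNPab libraries were left out of the fit (edgeR adjusted p = 0.0915 for vegt.S, 0.0552 for bicc1.L and 0.0592 for bicc1.S). Without the filter on low counts, vegt.S (edgeR adjusted p = 0.0526) and bicc1.S (0.0592) did not pass.

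The comparison of hnRNPab with IgG, which shares its IgG libraries with the comparison before it, gave log2 differences above 1 for 3 of the transcripts. In the hnRNPab-labelled libraries, wnt11b.L was 2.87-fold higher (log2 1.52, SE 0.176, edgeR adjusted p = 3.6e-05), bicc1.S 2.43-fold (log2 1.28, SE 0.0789, adjusted p = 2.9e-07) and vegt.S 2.28-fold (log2 1.19, SE 0.135, adjusted p = 3.02e-05). The other copy, bicc1.L, was 1.51-fold higher (log2 0.59, SE 0.177, edgeR adjusted p = 0.0209). All 4 were thus called higher, against 16.3% of all tested genes, and CPM ranges separated for 4 of 4, against 15.2%. Among genes in the Staufen table alone, however, 83% were called higher in this comparison, so the direction of the 4 is not independent of their listing. Among these genes, wnt11b.L was at percentile 80.6 of the log2 fold changes, bicc1.S at 70, vegt.S at 65 and bicc1.L at 20.8. Fits omitting IgG 3, IgG 4 or hnRNPab 2 no longer called bicc1.L (edgeR adjusted p up to 0.0612).

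In the direct comparison of Staufen with hnRNPab, 3 of the transcripts were lower in Staufen and bicc1.L was not. In the Staufen-labelled libraries, wnt11b.L was at log2 -1.08 relative to those labelled hnRNPab (SE 0.174, edgeR adjusted p = 0.000458), bicc1.S at -0.95 (SE 0.0783, adjusted p = 2.81e-06) and vegt.S at -0.68 (SE 0.133, adjusted p = 0.00178). For bicc1.L the difference was 0.15 (95% interval -0.23 to 0.53, edgeR adjusted p = 0.583), and 0.14 with the replicate block (SE 0.0517, adjusted p = 0.0197). It was positive in 4 of 4 replicate numbers, from 0.05 to 0.27. Called lower were thus 3 of 4, against 16.3% of all tested genes and 80.1% of those in the Staufen table alone (31.5% and 93.9% with the block). CPM ranges separated, with Staufen lower, for the same 3 of 4, against 15.5% of all tested genes. With the block, bicc1.L was called higher, as were 33.1% of all tested genes and 20 of the 1978 tested genes in the Staufen table alone (1.01%). Its log2 fold change lay at percentile 99 of those 1978 genes, where vegt.S was at 69.8, bicc1.S at 46.6 and wnt11b.L at 36.4.

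**Figure D2:**
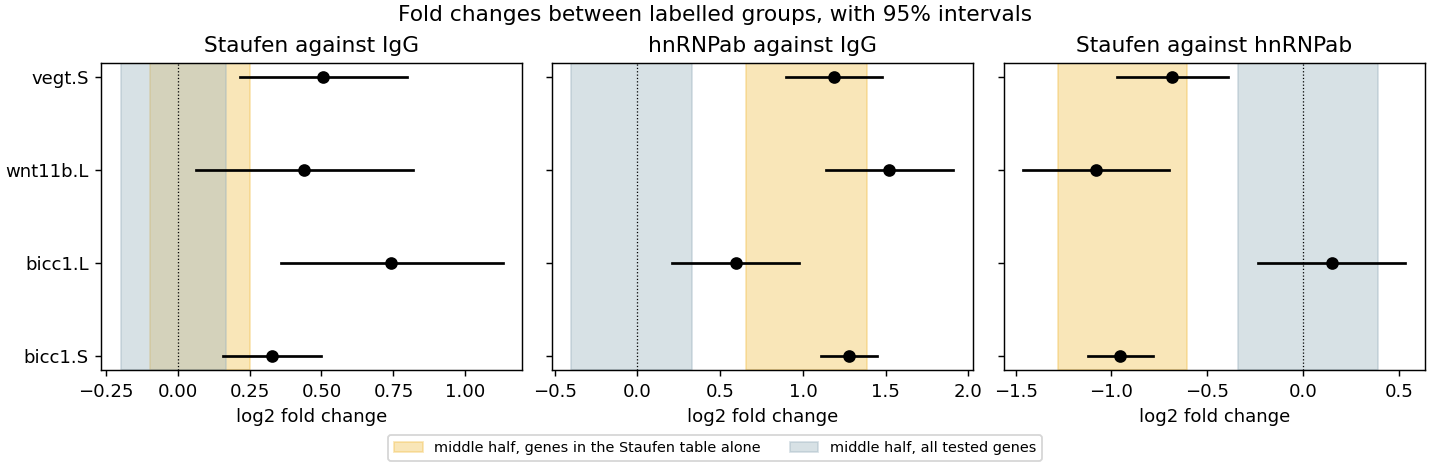
Log2 fold change of each transcript (points, with 95% intervals from the fit without the replicate block) in the 3 comparisons of labelled groups; shaded bands run from the lower to the upper quartile of all tested genes (blue-grey) and of genes in the Staufen table alone (yellow). In the right panel bicc1.L, at 0.15, lies outside the yellow band that holds the points of the other 3 transcripts.

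A further measure moved with the groups. The share of singly aligned reads that fell outside annotated exons was 16.9% to 19.6% in the IgG-labelled libraries, 13.4% to 14.8% in the Staufen ones and 11% to 12.9% in the hnRNPab ones, an order opposite to that of vegt.S, wnt11b.L and bicc1.S. Its part in these differences was not tested. Of oocyte markers, 4 genes had a name, of 27 that the reference gene table lists. The growth factor transcript gdf9.L was at 112, 146 and 309 CPM on average in IgG, Staufen and hnRNPab, ccnb1.L, a cyclin, at 195, 210 and 675, ccnb1.S at 152, 165 and 403, and mos.L, the meiotic kinase, at 762, 505 and 382. Follicle and theca markers had 0 named genes of 21, and blood, endothelial and stromal markers 1 of 32, the red cell anion exchanger slc4a1.L, at 28.7, 31.1 and 125 CPM. It was higher in the hnRNPab-labelled libraries than in IgG-labelled ones by log2 2.13 (edgeR adjusted p = 3.36e-06). The oocyte markers ccnb1.L (1.79), gdf9.L (1.46) and ccnb1.S (1.41) were called higher there too, and mos.L (-0.995) lower. All but mos.L are in the Staufen table alone, of whose genes 83% were higher in this comparison, against 16.3% of all tested genes. The part of other cell types in the results was not tested.

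The copies of bicc1 were next compared within each library, which needs no scaling between libraries. The share of bicc1.L among the counts of both copies was 70.3%, 71.9%, 62.1% and 71% in the IgG-labelled libraries, 75.5%, 78%, 69.7% and 75.2% in the Staufen ones, and 59.8%, 61%, 54.1% and 57.6% in the hnRNPab ones. Every library labelled hnRNPab was below every other library, and the IgG and Staufen ranges overlapped only through Staufen 3. Exact (Clopper-Pearson) 95% intervals of a library's share spanned at most 3.2 percentage points, for counting error only, so the spread between libraries exceeded it. Group means were 68.8% ± 4.53 (SD, n = 4), 74.6% ± 3.49 and 58.1% ± 3.03 for IgG, Staufen and hnRNPab. The share depends on the lengths of the counted exons and on how reads shared by near-identical copies were assigned, so it does not give the abundance of a copy. Differences between copies are uncertain to that extent.

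**Figure D3:**
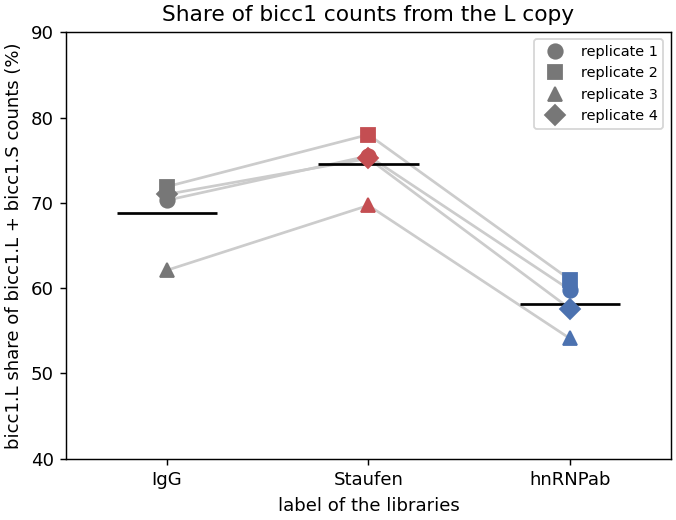
Share of bicc1.L in the summed counts of bicc1.L and bicc1.S (percent, axis from 40 to 90) in each library; marker shapes and grey lines give the replicate number and black bars the group means. The hnRNPab libraries lie between 54.1% and 61%, below all others, and each replicate number has its highest share in Staufen.

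The log2 ratio of bicc1.L to bicc1.S was higher in the Staufen-labelled libraries than in those labelled hnRNPab by 1.09, a 2.13-fold change of the ratio (SE 0.158, two-sided exact permutation test p = 0.0286, adjusted p = 0.0735 over 18 ratio tests). The difference held in 4 of 4 replicate numbers, from 0.97 to 1.18. Between hnRNPab and IgG the ratio differed by -0.68 (exact permutation p = 0.0286, adjusted p = 0.0735), again in 4 of 4 numbers. Between Staufen and IgG it differed by 0.41 (exact permutation p = 0.114, adjusted p = 0.206), with 4 of 4 numbers positive, from 0.31 to 0.49. An unadjusted p of 0.0286 is the smallest that 4 libraries against 4 can give, and no ratio passed the adjustment over 18 tests. An exact sign-flip test on the 4 within-number differences cannot go below 0.125. For context, 191 genes have both copies in the Staufen table alone. By size of the difference between copies in Staufen against hnRNPab, bicc1 ranked 10 of these 191, with a difference of 1.10 between the copies' log2 fold changes against a median size of 0.38. In hnRNPab against IgG it ranked 40 and in Staufen against IgG 26.

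Ratios of bicc1.L to wnt11b.L and vegt.S also separated the Staufen from the hnRNPab libraries, though neither passed the adjustment. In Staufen against IgG the groups overlapped for both (exact permutation adjusted p = 0.327 for wnt11b.L and 0.475 for vegt.S). In hnRNPab against IgG the ratio with wnt11b.L separated the groups (adjusted p = 0.0735) and that with vegt.S did not (adjusted p = 0.171). The log2 ratio of wnt11b.L to bicc1.L was lower in Staufen than in hnRNPab (difference -1.22, exact permutation p = 0.0286, adjusted p = 0.0735), and that of vegt.S to bicc1.L differed by -0.83 (exact permutation p = 0.0286, adjusted p = 0.0735). The ratio of vegt.S to wnt11b.L differed by -0.33 between hnRNPab and IgG and by 0.40 between Staufen and hnRNPab, with no overlap of groups in either (exact permutation p = 0.0286, adjusted p = 0.0735 for each). The ratio of wnt11b.L to bicc1.S did not separate any groups, with differences of 0.12, 0.25 and -0.13 in Staufen against IgG, hnRNPab against IgG and Staufen against hnRNPab (exact permutation p = 0.514, 0.286 and 0.457). Within replicate numbers, however, its differences had the same sign in 4 of 4 numbers in each comparison.

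**Figure D4:**
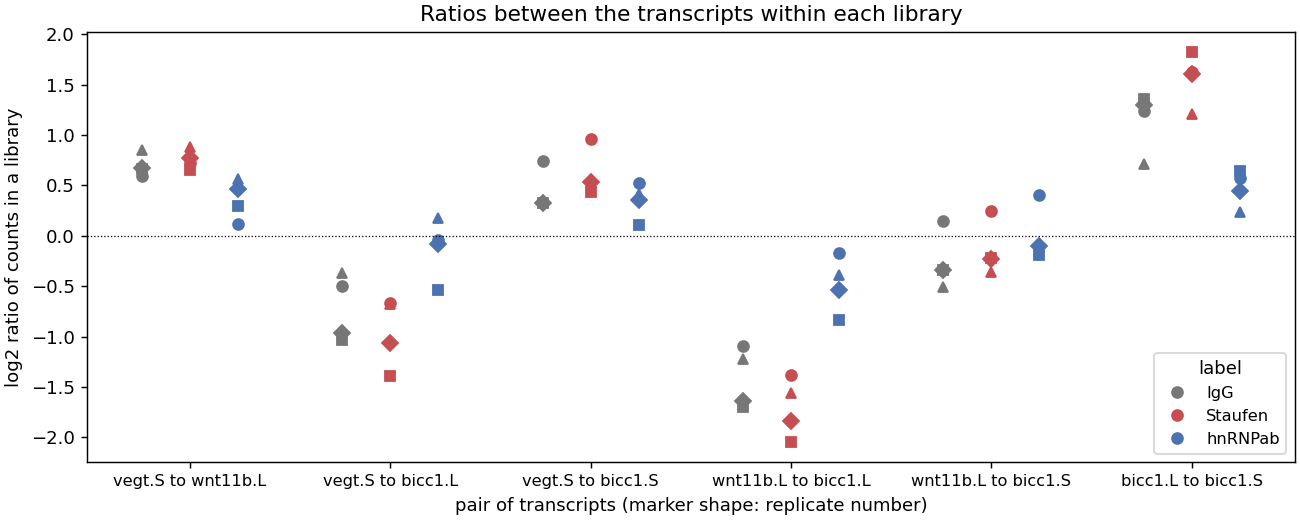
Log2 ratio of the counts of 2 transcripts within each library (vertical axis) for the 6 pairs; colours give the label of the library and marker shapes the replicate number. Ratios with bicc1.L separate the hnRNPab from the Staufen libraries, and for wnt11b.L to bicc1.S the 3 groups overlap.

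Likeness over the 12 libraries was measured as the root mean square (RMS) difference in log2 CPM after centring each gene on its mean, a value that is small for genes with similar profiles. It was 0.21 between vegt.S and wnt11b.L, 0.21 between vegt.S and bicc1.S and 0.26 between wnt11b.L and bicc1.S. From bicc1.L it was 0.45 to vegt.S, 0.50 to bicc1.S and 0.58 to wnt11b.L. Among 20802 other genes, bicc1.S ranked 176 and bicc1.L 4199 in closeness to vegt.S. In closeness to bicc1.S, vegt.S ranked 215 and bicc1.L 4797. The median RMS difference over all genes was 0.628 from vegt.S and 0.659 from bicc1.S, so bicc1.L was nearer to each than the median gene. Among the 2560 named genes with a mean of at least 5 CPM, those nearest to vegt.S were map4k5.S and msl1.S, for a kinase and a subunit of a histone acetyltransferase complex (RMS 0.113 and 0.114), and csnk1e.L, for casein kinase 1 epsilon (0.113). Nearest to wnt11b.L were hmgn1.S, for a nucleosome-binding protein (0.127), ddit4.L, for an inhibitor of mTORC1 (0.130), and rcc1.L, for the exchange factor of Ran (0.135). Nearest to bicc1.S were gpa33.S (0.0888), ralgapa1.S, for a GTPase-activating subunit acting on Ral (0.106), and nlk.S, for Nemo-like kinase (0.109). The nearest to bicc1.L were more distant: ormdl1.L, for a regulator of sphingolipid synthesis (0.209), ube2v2.S, for a ubiquitin-conjugating enzyme variant (0.239), and sept8.L, for a septin (0.242). All 12 of these genes are in the Staufen table alone, but only genes named by the deposited tables could be candidates. The transcripts themselves were taken from the Staufen table. In hnRNPab against IgG the median log2 fold change was 0.962 for tested genes in that table alone and -0.947 for those in the hnRNPab table alone. The count of 12 is therefore not independent of the listing, and the share of the 2560 candidates in each table is not given here. The means of ormdl1.L were 38.3, 55.9 and 56.6 CPM in IgG, Staufen and hnRNPab.

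Other genes around these transcripts were read from lists, in which only genes named in the deposited tables could be followed. In Staufen against IgG median log2 fold changes were 0.27 for vegetally localized mRNAs, -0.01 for Wnt signalling and 0.09 for endoderm and nodal genes. They were -0.24 for Bicc1 partners and -0.10 for transport proteins, against -0.01 over all tested genes. Except for transport proteins, these medians include values of the 4 transcripts themselves. In the vegetally localized list the transcripts make up 4 of the 8 named genes, so 0.27 does not describe other vegetal mRNAs. Of a list compiled as vegetally localized maternal mRNAs, 8 of 39 genes in the reference table had a name. The 4 besides those above were bambi.S, for a pseudoreceptor of TGF-beta signalling, cyp1a1.S, for a cytochrome P450, hook2.L, for a dynein adaptor, and zc3h10.L, for a zinc finger RNA-binding protein. In Staufen against IgG they were at log2 0.21, 0.03, -0.02 and -0.48 in that order (edgeR adjusted p = 0.792, 0.99, 0.973 and 0.0672). With the replicate block bambi.S was higher (log2 0.21, adjusted p = 0.00705) and zc3h10.L lower (-0.48, adjusted p = 1.57e-07). In hnRNPab against IgG bambi.S (1.34, adjusted p = 0.000625) and cyp1a1.S (0.77, adjusted p = 0.00574) were higher and zc3h10.L (-1.70, adjusted p = 4e-06) lower in edgeR. There 16.3% of all tested genes were higher and 17.4% lower. Both bambi.S and cyp1a1.S are in the Staufen table alone, of whose genes 83% were higher. The hnRNPab table alone holds zc3h10.L, and 82.9% of its genes were lower. In Staufen against IgG with the block these 2 shares were 31.3% and 69.2%. The directions are therefore not independent of the listing.

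Of the maternal Wnt signalling list, 28 gene entries were named and tested (lrp5.L holds 2 of them), against 68 genes in the reference table. In hnRNPab against IgG 16 were called higher and 3 lower, where 16.3% of all tested genes were higher and 17.4% lower (median log2 0.92, against -0.02 over all tested genes), and 19 of the 28 are in the Staufen table alone, of whose genes 83% were higher. With the block 21 were higher and 4 lower, against 31.3% and 33.3% of all tested genes. The co-receptor transcript lrp6.L was at 256, 318 and 631 CPM on average in IgG, Staufen and hnRNPab, and was called higher in hnRNPab against IgG (log2 1.30, edgeR adjusted p = 2.57e-06). In Staufen against IgG lrp6.L did not pass (log2 0.31, edgeR adjusted p = 0.109, and 3.38e-06 with the block). The other copy, lrp6.S, was at 14, 12.7 and 19 CPM. It passed neither in hnRNPab against IgG (log2 0.44, edgeR adjusted p = 0.129, and 1.32e-05 with the block) nor in Staufen against IgG (-0.15, adjusted p = 0.876). The transcript csnk1d.L, with a smaller p than lrp6.L in hnRNPab against IgG, was at 39.7, 32.2 and 164 CPM. The order of wnt11b.L was therefore not shared by the whole list. In Staufen against IgG 0 of the 28 were higher and 2 lower, axin2.S (-1.22, edgeR adjusted p = 0.000145) and axin1.S (-0.38, adjusted p = 0.00915), both for scaffolds of the beta-catenin destruction complex, against 4.45% and 3.33% of all tested genes. Both are in the hnRNPab table alone, of whose genes 21.1% were lower in this fit. The other copy of axin2, axin2.L, did not pass (-0.18, edgeR adjusted p = 0.53, and 0.00742 with the block). At an unadjusted p below 0.05 in edgeR 5 of the 28 were higher and 7 lower, against 9.83% and 9.28% of all tested genes. DESeq2 called 2 higher and 5 lower, against 8.07% and 7.19% of the genes to which it gave an adjusted p. With the block 9 were higher and 9 lower, against 19% and 20.5% of all tested genes. These shares were 31.3% and 14.1% for genes in the Staufen table alone, and 6.21% and 69.2% for the hnRNPab table alone.

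Of the endoderm and nodal list around VegT, 10 of 50 reference genes were named and tested, and 9 were higher and 1 lower in hnRNPab against IgG with and without the block (median log2 1.45), against 16.3% and 17.4% of all tested genes without it and 31.3% and 33.3% with it. Of the 10, 8 are in the Staufen table alone, of whose genes 83% were higher in that comparison. In Staufen against IgG 2 were higher, vegt.S and foxh1.L, for a transcription factor that binds Smad proteins (log2 0.79, edgeR adjusted p = 0.00395), and 0 lower, against 4.45% and 3.33% of all tested genes. With the block 4 were higher and 1 lower, against 19% and 20.5% (31.3% and 14.1% of those in the Staufen table alone). Of the list of Bicc1 partners and translational repression, 16 of 45 were named and tested, of which 8 had only the Staufen table as source, 6 only the hnRNPab table, and 2 were listed by both. In Staufen against IgG 2 were higher and 2 lower, against 4.45% and 3.33% of all tested genes, and 3 higher and 9 lower with the block, against 19% and 20.5%. Those higher in Staufen against IgG were the 2 bicc1 copies, and those lower included cpeb4.S, for a cytoplasmic polyadenylation factor (-0.85, edgeR adjusted p = 0.000874). In hnRNPab against IgG 7 were higher and 6 lower (8 and 7 with the block), against 16.3% and 17.4% of all tested genes without the block and 31.3% and 33.3% with it. Genes listed only by the Staufen table were higher in 83% of cases in that comparison, and those listed only by the hnRNPab table were lower in 82.9%. Shares with the block in Staufen against IgG were 31.3% higher and 14.1% lower for genes in the Staufen table alone. They were 6.21% and 69.2% for the hnRNPab table alone, and 13.2% and 53.8% for genes in both. The counts of this list are therefore not independent of the listing. Transcripts of dand5, a nodal and BMP antagonist whose mRNA Bicc1 is known to bind, were at 241, 226 and 789 CPM for dand5.L and 145, 139 and 296 CPM for dand5.S in IgG, Staufen and hnRNPab.

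Of mRNAs for proteins of vegetal RNA transport, 17 of 56 reference genes were named and tested, 11 in the hnRNPab table alone and 6 in the Staufen table alone. In Staufen against IgG 3 were higher and 1 lower, against 4.45% and 3.33% of all tested genes, and with the block 5 were higher and 8 lower, against 19% and 20.5%. In hnRNPab against IgG 5 were higher and 10 lower (6 and 10 with the block, median log2 -0.91), against 16.3% and 17.4% of all tested genes without the block and 31.3% and 33.3% with it. The shares by table given for the Bicc1 partners in this comparison (83% higher and 82.9% lower) apply here too. Shares with the block in Staufen against IgG were 6.21% higher and 69.2% lower for genes in the hnRNPab table alone. They were 31.3% and 14.1% for the Staufen table alone. The counts of this list are therefore not independent of the listing. The stau1.S transcript was higher in Staufen than in IgG by log2 1.01 (edgeR adjusted p = 0.00147) and did not pass between Staufen and hnRNPab (0.14, adjusted p = 0.515, and 0.0709 with the block). The mRNA of igf2bp3.L, which encodes the Vg1 RNA-binding protein of the transport particle, was at 197, 187 and 87.5 CPM in IgG, Staufen and hnRNPab. It was lower in hnRNPab against IgG (log2 -1.17, edgeR adjusted p = 9.03e-06), as were 82.9% of genes in the hnRNPab table alone, which holds it. In Staufen against IgG it did not pass (-0.08, adjusted p = 0.881, and 0.26 with the block).

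In the authors' deposited Staufen table, ranked by p-value among 2457 genes, bicc1.S was at 357, wnt11b.L at 1238, vegt.S at 1338 and bicc1.L at 1728. By log2 fold change the authors' deposited table places them at 1574, 1454, 2296 and 2063, with values of 1.11, 1.15, 0.89 and 0.96 against a median of 1.24 and a minimum of 0.85 over the table. The table's value for bicc1.L (0.96) lies above all 3 of its differences between labelled groups (0.74, 0.59 and 0.15), and which libraries entered the authors' fit is not given in the sources used here.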

How the data were processed

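Per the submitters' processing notes, the authors used STAR 2.6.1b, HTSeq 0.9.1 and edgeR. Which genome build, annotation and strandedness they used is not given in the sources used here, so reads of overlapping or antisense genes may not be told apart. Deposited by the authors were whole-number counts per gene for each library, without normalization, and 2 tables whose log2 fold changes and log2 CPM, F score and p-value columns are so named per the file headers. HTSeq's summary lines (0.521% to 0.791% ambiguous and 11% to 19.6% outside exons) stayed out of totals and tests. A count of 0 would allow 3 counts, or 0.136 to 0.212 CPM.

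Tests used edgeR 4.0.16 under R 4.3.3 (TMM, filterByExpr, all 12 libraries, group as the only term, quasi-likelihood F test, Benjamini-Hochberg over 20803 genes, threshold 0.05), after tests on simulated data. Ratios used a pseudocount of 0.5 and two-sided exact permutation tests. Alternatives were DESeq2 1.42.0, other scalings, no filter, the groups compared alone, a replicate block and leaving out each library. Deviations from group means correlated at 0.783 to 0.875 for libraries of the same replicate number and at -0.508 to -0.0593 for others, so the numbers were taken to pair libraries, on the data alone. Named genes were the 4 transcripts, stau1.S, the 3 nearest named genes of each by RMS, and up to 4 called members of each list, with some others given as levels after their values were seen. The transcripts and lists were chosen with earlier results of these data known. Values of some genes that this rule covers are left out here. Names come from the deposited tables. The reference gene table (Xenopus_laevis_v10.1) only counted the genes of each list. No sequence or coordinate was used.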

Additional observations from a re-analysis of the deposited data

Results flagged for a closer look

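Of 30 sets of 4 libraries examined (levels and within-library ratios of the 4 transcripts), 3 had a library far from the other 3 relative to the range of the group. All 3 such libraries were replicate 1 of their group. Chance alone gives about 1 in 20 for independent sets, but these sets share libraries and transcripts. The level of vegt.S was 187 CPM in Staufen 1, where the other libraries labelled Staufen lay between 135 and 143 CPM. The log2 ratio of vegt.S to bicc1.S was 0.74 in IgG 1, against 0.32 to 0.34 in the other libraries labelled IgG. The log2 ratio of wnt11b.L to bicc1.S was 0.41 in hnRNPab 1, against -0.19 to -0.10 in the other libraries labelled hnRNPab. Replicate 1 also had the highest value of this ratio in IgG (0.15) and in Staufen (0.24). For vegt.S to bicc1.S it was the highest in Staufen (0.96) and in hnRNPab (0.53) as well. The flagged libraries are therefore not separate from a level shared by replicate 1.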

How the results depend on the processing

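Without the low-count filter the calls of vegt.S (log2 0.52, adjusted p = 0.0526) and bicc1.S (0.34, adjusted p = 0.0592) in Staufen against IgG were lost and 442 genes, not 693, were lower (edgeR). With only the libraries labelled Staufen and IgG in the fit, vegt.S (0.50), bicc1.L (0.74) and bicc1.S (0.32) were all lost. Fitted to all 12 libraries, DESeq2 called 1233 genes lower in Staufen against IgG. With the replicate block 3945 genes were higher and 4259 lower in Staufen against IgG, 6505 and 6937 in hnRNPab against IgG, and 6880 and 6551 in Staufen against hnRNPab; wnt11b.L in Staufen against IgG (0.45) and bicc1.L in Staufen against hnRNPab (0.14) then passed, and no other call of the 4 transcripts changed. The counts without the block were 925 and 693, 3388 and 3617, and 3438 and 3401. The cause of these changes was not tested.

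With 1 library left out, the log2 fold change in Staufen against IgG of vegt.S was 0.38 to 0.63, that of wnt11b.L 0.30 to 0.61, that of bicc1.L 0.61 to 0.85 and that of bicc1.S 0.28 to 0.36, and the count of lower genes was 383 to 960 (383 without IgG 2, 421 without IgG 3 and 457 without Staufen 4). In hnRNPab against IgG bicc1.L ran from 0.47 to 0.70. Differences in log2 ratio ran from 0.49 to 0.73 (vegt.S to bicc1.L, hnRNPab against IgG), 0.27 to 0.53 (bicc1.L to bicc1.S, Staufen against IgG), 0.0623 to 0.282, -0.141 to 0.0199 and 0.145 to 0.323 (vegt.S to bicc1.S in Staufen against IgG, hnRNPab against IgG and Staufen against hnRNPab), and -0.0117 to 0.254, 0.112 to 0.388 and -0.262 to 0.00515 (wnt11b.L to bicc1.S in the same order). The 3 sign changes were of uncalled differences near 0 and came without IgG 1 (0.0199), Staufen 1 (-0.0117) and hnRNPab 1 (0.00515). A ratio test of 3 libraries against 4 cannot pass 0.05. DESeq2 and scaling by size factors or by library totals changed no call of the 4 transcripts.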
